A study of Mus musculus with 2 samples.

Results

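Ghrl, Mboat4 and Acsl1 were examined as the genes of ghrelin and its acylation. They were taken by symbol from the gene list of the count matrices, where each symbol stood on 1 row, so that the set holds 3 of 32285 genes. No measured value entered that choice. They were followed through single Neurog3-derived cells of the mouse small intestine, from cells rich in the progenitor gene Neurog3 through the hormone subtypes to goblet, Paneth and other cells.

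The study sorted Tomato+ epithelial cells from Neurog3Cre; Rosa26tdtomato mice (WT) and from Neurog3Cre-FoxO1 f/f; Rosa26tdtomato mice (NFKO), in which the Cre that turns on the tdTomato reporter was also meant to delete FoxO1. All mice carried the Cre and the reporter and were 4 to 6 weeks old. Each group was 1 library of cells from 4 to 5 pooled mice, with the attached pancreas dissected away. The Cre is driven by Neurog3, so the mark and the deletion are aimed at the descendants of Neurog3-expressing cells, and individual mice cannot be told apart within a pool.

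Ghrelin is the peptide hormone that stimulates appetite and growth hormone release, made by endocrine cells of the stomach and, more sparsely, of the proximal intestine. The peptide encoded by Ghrl activates its receptor, Ghsr, only after a medium-chain fatty acid, usually octanoate, has been attached to a serine. The enzyme that attaches it is ghrelin O-acyltransferase (GOAT), encoded by Mboat4, a member of the MBOAT family of membrane-bound acyltransferases, and it draws on fatty acids that acyl-CoA synthetases such as Acsl1 join to coenzyme A. Acsl1 prefers long-chain fatty acids and serves lipid metabolism in many cell types, whereas Mboat4 has ghrelin as its chief known substrate.

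Ghrl (ENSMUSG00000064177) lies on chromosome 6 of GRCm38, from 113716119 to 113719880 on the minus strand, with 7 annotated transcripts of which 6 are coding. Mboat4 (ENSMUSG00000071113) spans 34115030 to 34125182 of chromosome 8, plus strand, with 1 transcript. Acsl1 (ENSMUSG00000018796) spans 46471037 to 46536051 of the same chromosome and strand, with 11 transcripts of which 7 are coding. Upstream sequence of 2 of the 3 genes was matched by symbol in RefSeq for GRCm38.p6, which gives 4 start sites for Ghrl and 2 for Acsl1. No start site was matched for Mboat4, so the 250 bases before the outermost start site of Ghrl and of Acsl1 are printed. A forkhead core was looked for because FoxO1 is a forkhead factor. Capitals mark matches to a forkhead core (GTAAACA, or the same word beginning with ATA, ACA or GCA in place of its GTA) and to the GC box (GGGCGG) on either strand.
Ghrl, chr6:113719912-113720161, minus strand: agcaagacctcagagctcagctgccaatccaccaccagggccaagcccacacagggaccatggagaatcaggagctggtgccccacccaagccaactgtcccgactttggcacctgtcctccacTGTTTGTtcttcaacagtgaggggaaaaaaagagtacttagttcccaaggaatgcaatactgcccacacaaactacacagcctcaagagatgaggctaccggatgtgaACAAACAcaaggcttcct
Acsl1, chr8:46470787-46471036, plus strand: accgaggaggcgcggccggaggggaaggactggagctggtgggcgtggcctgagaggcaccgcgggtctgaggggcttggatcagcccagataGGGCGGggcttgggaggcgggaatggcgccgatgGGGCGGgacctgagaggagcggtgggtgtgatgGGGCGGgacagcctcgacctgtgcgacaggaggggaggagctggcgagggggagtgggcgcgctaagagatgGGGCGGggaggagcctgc

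The Ghrl window held 2 forkhead matches, beginning 126 and 18 bases before the start site, and no GC box, with a GC content of 52.8%. The Acsl1 window held 4 GC boxes, beginning 157, 123, 90 and 18 bases before the start site, and no forkhead match, with a GC content of 72.0%. The E-box CANNTG that basic helix-loop-helix factors such as Neurog3 bind, matched 3 times in the Ghrl window, at 233, 158 and 140 bases before the start site, and not in the Acsl1 window. Of 32851 RefSeq windows of the same length, 15.7% held a forkhead core, 66.2% an E-box and 32.7% a GC box. The contrast holds for the outermost windows: the 3 other Ghrl windows held no forkhead match and no GC box, and the other Acsl1 window held 2 E-boxes and no GC box, with a GC content of 48.4%. A match is a run of letters and not a measured binding site.

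The libraries held 3003 WT and 5292 NFKO-labelled cells after filtering, with 78722460 and 111249836 unique molecular identifiers (UMIs), each of which marks 1 captured transcript. The unit of level is CPM, a gene's UMIs in a set of cells divided by the set's total and multiplied by 1000000. Since each group had 1 library, no value has a replicate and no test was made; intervals in parentheses are 95% intervals that cover counting error only, and a ratio is said to be within counting error where its interval holds 1. Foxo1 had 11.6 CPM in WT and 12.4 in the NFKO-labelled library, a ratio of 1.07 (0.987 to 1.17), and in the EEC-like cells defined below 25.1 and 22.1 CPM, a ratio of 0.880 (0.761 to 1.02). The kit counts the 3′ ends of transcripts and may count one with an internal deletion, so Foxo1 does not check the label, and every direction below rests on it. The libraries also differed in the sex of the mice: 2424 WT cells carried Y-linked transcripts without Xist and 6 Xist alone, against 357 and 4359 NFKO-labelled cells. The libraries shared 4 barcodes among their kept cells, and 47 and 86 of the sorted cells lay in a cluster named immune-like from 3 markers.

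Both libraries were clustered together without the 3 genes, so that their levels did not shape the clusters, and 9 of 23 clusters were named enteroendocrine-like (EEC-like) from markers such as Chga, Chgb and Neurod1. These 9 clusters held 863 WT and 1888 NFKO-labelled cells, and the 8 markers summed to 23349 and 19418 CPM in them. A shallow cluster rich in Gip, of 172 WT and 106 NFKO-labelled cells, was left unnamed and is not counted in the class. The 9 clusters are called below by the hormone or other gene that stood out in them. The Neurog3-richest cluster (197 WT and 369 NFKO-labelled cells) had 552 and 901 CPM of Neurog3, the transcription factor of EEC progenitors, against 60.0 and 88.1 CPM in the other 8 clusters together. Of these, the Tac1/Tph1 cluster had 424 CPM of Neurog3 over both libraries, and the remaining 7 had 0 to 22.5 CPM.

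Ghrl, the hormone itself, was concentrated in EEC-like cells. Its level there was 10367 CPM (10305 to 10429) in WT and 14733 CPM (14689 to 14778) in the NFKO-labelled library. The other named classes together had 51.5 and 107 CPM. The 3 unnamed clusters are not in that figure and had 1004, 786 and 27.5 CPM of Ghrl over both libraries. EEC-like cells held 96.9% of the Ghrl UMIs in WT and 97.7% in the NFKO-labelled library. The hormone was also concentrated within that class, since 50% of all Ghrl UMIs lay in 33 WT cells and in 53 NFKO-labelled cells, and the highest single cells held 2650 and 14412 Ghrl UMIs.

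Across the EEC-like clusters Ghrl spanned more than 3 orders of magnitude of CPM in WT. In WT the order from the highest was the Cck cluster (31029.9 CPM in 13 cells), the Neurog3-richest cluster (24987 CPM), the Gcg cluster (14638 CPM), the Pyy cluster (9369 CPM) and the Sst cluster (8887 CPM). In the NFKO-labelled library the Neurog3-richest cluster came first (46522 CPM), followed by the Sst (28979.6 CPM), Cck (24565 CPM), Pyy (14960.1 CPM) and Gcg (12678 CPM) clusters. Neighbours in these orders were apart beyond counting error in both libraries. Ghrl was thus not the mark of 1 cluster: these 5 of the 9 clusters carried it at over 5000 CPM in each library.

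The low end held the clusters of other hormones. The Gip cluster, with the K-cell hormone of the proximal gut, had 203 and 268 CPM of Ghrl. The serotonergic clusters had 16.0 and 51.7 CPM (Tac1/Tph1) and 28.3 and 135 CPM (Tph1/Cartpt), and this last pair was not apart in WT, with a ratio of 1.77 (0.744 to 3.80). The Nts cluster, with neurotensin, had 351 CPM in 35 WT cells and 4788 CPM in 88 NFKO-labelled cells. Apart from the Nts cluster, these levels were near or below those of enterocyte-like cells, which had 216 and 196 CPM.

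Within each cluster Ghrl was uneven from cell to cell. In the Neurog3-richest cluster the median cell had 1812 CPM in WT and 2716 CPM in the NFKO-labelled library, with upper quartiles of 23178 and 47482 CPM, and 41.6% and 47.2% of its cells were at 5000 CPM or over. The Cck cluster had the highest share in WT, at 61.5% of 13 cells, and 58.0% in the NFKO-labelled library. The Sst cluster had 32.4% of 37 cells in WT and 67.5% of 114 cells in the NFKO-labelled library. In the Gip cluster 0 of 151 WT cells and 0.671% of 447 NFKO-labelled cells reached that level.

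In the other named classes Ghrl was low, and free RNA in the droplets also gives UMIs to cells that do not express a gene. After each cell was thinned to 2000 UMIs, 39.4% of WT and 40.4% of NFKO-labelled EEC-like cells had a Ghrl UMI, at a median depth before thinning of 12540.0 and 15440.5 UMIs. In goblet-like cells, which make mucus and should lack the hormone, 1.56% and 12.8% did, at median depths of 24257.0 and 21718.5 UMIs. Goblet-like Ghrl was 10.3 CPM in WT and 48.2 CPM in the NFKO-labelled library, and the abundant hormone Gip, which goblet cells should lack too, was also higher there, at 338 against 39.4 CPM. The proportion of Ghrl to Gip differed between classes in WT, where enterocyte-like cells had 216 CPM of Ghrl beside 50.9 CPM of Gip and Paneth-like cells 66.0 beside 35.8 CPM. The part of free RNA in these levels was not tested. The goblet-like class was made of different clusters in the libraries: 586 of 837 WT cells lay in a cluster with 25 NFKO-labelled cells.

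Mboat4, the acyltransferase, was in EEC-like cells as Ghrl was, and near 0 in the other named classes. The unnamed cluster rich in Gip had 7.12 CPM over both libraries. EEC-like cells had 57.2 CPM (52.7 to 62.0) in WT and 64.9 CPM (62.0 to 67.9) in the NFKO-labelled library. Goblet-like cells had 6 Mboat4 UMIs in WT (0.316 CPM) and 17 in the NFKO-labelled library (0.552 CPM), so that EEC-like cells were 181-fold (82.7 to 495) and 118-fold (73.2 to 202) higher. Tuft-like, cycling and immune-like cells in WT had 0 Mboat4 UMIs, which allows levels of up to 4.50, 1.55 and 3.11 CPM (3 UMIs). EEC-like cells held 95.2% and 96.5% of all Mboat4 UMIs, close to the shares of Ghrl.

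The clusters rich in Mboat4 were 3 of the 5 rich in Ghrl. The Neurog3-richest cluster had 137 and 195 CPM, the Sst cluster 96.5 and 115 CPM, and the Gcg cluster 72.8 and 104 CPM. The first was above the second by 1.42-fold (0.978 to 2.15) in WT and 1.69-fold (1.45 to 1.97) in the NFKO-labelled library, and the Sst and Gcg clusters were not apart in either. Below them came a step of 2.72-fold (2.02 to 3.72) in WT and 3.75-fold (2.77 to 5.19) in the NFKO-labelled library, to the Gip cluster (26.7 CPM) in WT and the Pyy cluster (27.7 CPM) in the other.

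Ghrl and Mboat4 parted in the Cck cluster. It had 10.0 CPM of Mboat4 in WT and 8.56 CPM in the NFKO-labelled library, from 2 and 13 UMIs, although its Ghrl was 31029.9 and 24565 CPM. The Nts cluster had 0 Mboat4 UMIs in WT, which allows up to 21.5 CPM, and 7.62 CPM in the NFKO-labelled library. In the Gip cluster the opposite held, with 26.7 and 20.6 CPM of Mboat4 beside little Ghrl. The serotonergic clusters had at most 3.14 CPM; the Tac1/Tph1 cluster, the second in Neurog3, had 0.499 and 0.591 CPM.

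Acsl1, the acyl-CoA synthetase, was detected in each of the 8 named classes and was highest in 1 EEC-like cluster. Goblet-like cells had 47.3 and 52.6 CPM, stem-like cells 34.4 and 43.9 CPM, enterocyte-like cells 21.1 and 29.4 CPM and Paneth-like cells 17.0 and 19.4 CPM. EEC-like cells had 98.3 CPM in WT and 148 CPM in the NFKO-labelled library, which was 2.08-fold (1.90 to 2.27) and 2.80-fold (2.65 to 2.97) above goblet-like cells. EEC-like cells held 32.0% of the Acsl1 UMIs in WT and 55.2% in the NFKO-labelled library, against over 95% of those of Ghrl and Mboat4.

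The Neurog3-richest cluster alone accounted for 23.5% and 43.6% of all Acsl1 UMIs. Its level was 332 CPM in WT and 599 CPM in the NFKO-labelled library, 5.16-fold (2.70 to 11.3) and 4.57-fold (3.92 to 5.36) above the next cluster, that of Nts (64.4 and 131 CPM). The other 8 EEC-like clusters together had 33.5 and 38.7 CPM, which was lower than goblet-like cells. In WT, neighbours in the order below the Neurog3-richest and Nts clusters were not apart. The Sst (45.0 and 50.7 CPM) and Gcg (37.7 and 42.9 CPM) clusters, both rich in Ghrl and Mboat4, had no more Acsl1 than goblet-like cells. The Tac1/Tph1 cluster had at most 29.2 CPM.

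**Figure D1:**
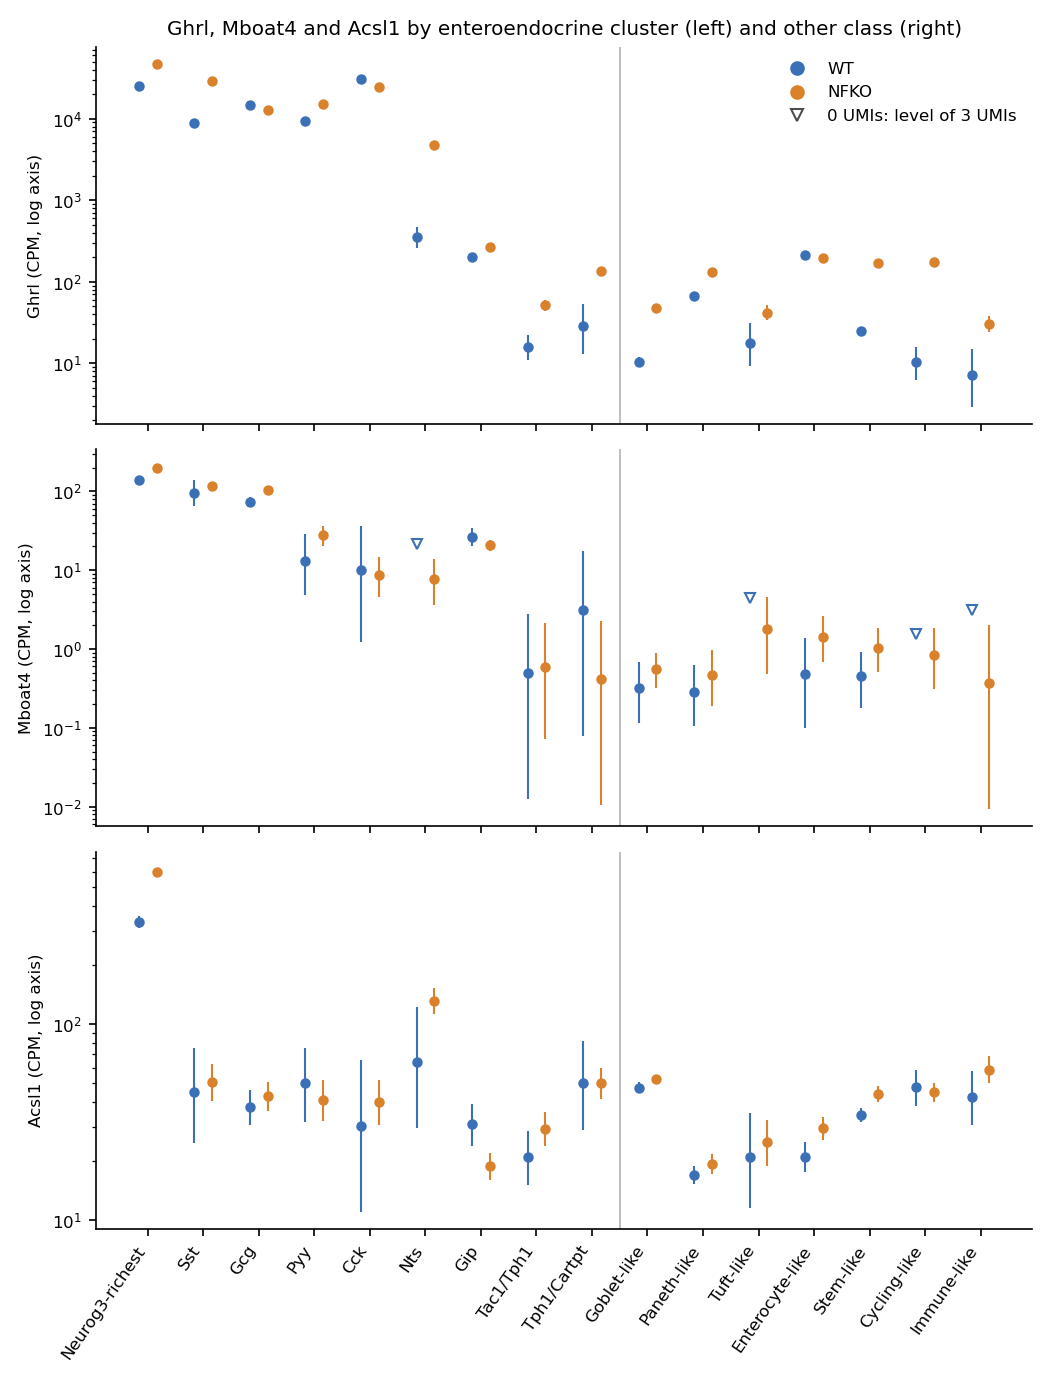
Levels of Ghrl (top), Mboat4 (middle) and Acsl1 (bottom) in CPM on log axes, in 9 EEC-like clusters (left of the line) and 7 other classes (right), for WT (blue) and the NFKO-labelled library (orange), with 95% counting intervals as bars and open triangles at the level of 3 UMIs where none was counted. Ghrl is high in 5 clusters, Mboat4 in 3 of them, and Acsl1 stands apart in the Neurog3-richest cluster at 332 and 599 CPM.

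Hormone groups were also cut cell by cell within the EEC-like class. EEC-like cells with at least 200 CPM and 2 UMIs of Neurog3 were set apart as Neurog3-high, and the rest were grouped by their highest hormone where it reached 5000 CPM and 5 UMIs. For Ghrl itself the groups were cut without Ghrl, so that its level was not fixed by the rule. It was then 14788 and 19619 CPM in Cck-dominant cells, 13103 and 10781 CPM in Gcg/Pyy-dominant cells, 8628 and 34180.5 CPM in Sst-dominant cells, and 15.6 and 90.2 CPM in Tph1-positive cells. Cells with none of these hormones, among them those with Ghrl alone, had the most, 25555 CPM in WT and 61842 CPM in the NFKO-labelled library. Near the limits of the rule lay 57 and 98 cells with 100 to 400 CPM of Neurog3.

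Mboat4 and Acsl1 were highest in Ghrl-dominant cells, which no limit on either gene had chosen. In 70 WT and 112 NFKO-labelled cells of this group Mboat4 was 253 and 297 CPM and Acsl1 455 and 850.2 CPM. Sst-dominant cells came next for Mboat4, at 99.9 and 129 CPM, with 43.7 and 54.0 CPM of Acsl1. Gcg/Pyy-dominant cells had 48.5 and 50.4 CPM of Mboat4 and Cck-dominant cells 46.3 and 50.3 CPM. The Cck-dominant cells were thus above the Cck cluster, at 10.0 and 8.56 CPM, and are not the same set of cells. Gip-dominant cells had 13.8 and 10.6 CPM, Nts-dominant cells 1.98 and 6.69 CPM, and Tph1-positive cells 2 Mboat4 UMIs in each library.

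Neurog3-high cells, 157 in WT and 364 in the NFKO-labelled library, were uneven in the 3 genes. Summed over the group they had 8202 and 14297 CPM of Ghrl, 64.6 and 109.7 CPM of Mboat4, and 175 and 336 CPM of Acsl1. These sums were carried by 30 and 97 cells at 5000 CPM of Ghrl or over, while the 111 and 244 cells under 500 CPM, most of the group, had 24.8 and 52.3 CPM of Ghrl, 14.2 and 15.8 CPM of Mboat4, and 24.8 and 26.8 CPM of Acsl1. The level of Neurog3 itself did not order Acsl1: cells at 1000 CPM of Neurog3 or over had 179 and 197 CPM of Acsl1, cells from 200 to 1000 CPM had 185 and 467 CPM, those with some but under 200 CPM had 500.4 and 435 CPM, and those with no Neurog3 UMI had 46.7 and 81.7 CPM.

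The joint occurrence of the genes in single cells was examined by binning EEC-like cells on Ghrl. Ghrl-low cells had under 500 CPM (560 in WT and 1289 in the NFKO-labelled library), and Ghrl-high cells 5000 CPM or over (184 and 408, or 21.3% and 21.6% of the class). Mboat4 was 18.6 and 17.6 CPM in Ghrl-low cells, 65.9 and 71.4 CPM between the limits, and 168 and 193 CPM in Ghrl-high cells. Acsl1 was 29.2 and 31.2 CPM, 65.9 and 70.4 CPM, and 327 and 504 CPM in the same bins. Ghrl-high cells were thus 9.04-fold (7.37 to 11.1) and 10.9-fold (9.69 to 12.4) above Ghrl-low cells in Mboat4, and 11.2-fold (9.56 to 13.2) and 16.1-fold (14.8 to 17.6) above them in Acsl1. In male-typed cells of the NFKO-labelled library the Mboat4 ratio was 46.4 (19.3 to 146), from 115 UMIs in 36 Ghrl-high and 5 UMIs in 81 Ghrl-low cells, and in female-typed cells 10.4 (9.16 to 11.7). Of the 10197 genes counted in WT 2.5% were at least 2-fold higher in Ghrl-high cells, and 3.32% of 12013 in the NFKO-labelled library. Cells within a factor of 2 of the upper limit, at 2500 to 10000 CPM of Ghrl, numbered 76 and 117.

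Presence or absence of a UMI at equal depth gave the same direction. After thinning to 2000 UMIs, 68 of the 340 WT cells with a Ghrl UMI (95% interval of the share 15.9% to 24.7%) also had an Mboat4 UMI, against 3.45% of the 522 without. In the NFKO-labelled library the shares were 20.1% of 755 cells with a Ghrl UMI and 3.32% of 1116 without. For Acsl1 they were 19.4% against 6.70% in WT and 23.3% against 6.09% in the NFKO-labelled library. A UMI of either enzyme was thus more frequent in cells with a Ghrl UMI, although most cells with a Ghrl UMI showed none at this depth.

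The difference in Acsl1 between Ghrl-high and Ghrl-low cells was large in 1 compartment. Ghrl-high cells of the Neurog3-richest cluster (82 in WT and 174 in the NFKO-labelled library) had 707 CPM of Acsl1 (654 to 763) and 1191 CPM (1150.3 to 1233). Ghrl-high cells of the remaining 8 clusters (102 and 234) had 52.8 and 60.1 CPM, so that the first were 13.4-fold (10.4 to 17.4) and 19.8-fold (17.4 to 22.6) higher. The second were at the level of goblet-like cells, with ratios of 1.12 (0.861 to 1.43) and 1.14 (0.997 to 1.31).

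Within that cluster Acsl1 went with Ghrl. Its Ghrl-low cells, 79 and 154, had 26.6 and 28.8 CPM of Acsl1, within counting error of the 29.7 and 31.6 CPM in Ghrl-low cells of the remaining clusters. Ghrl-high over Ghrl-low cells gave a ratio for Acsl1 of 26.5 (17.9 to 40.9) in WT and 41.3 (32.5 to 53.3) in the NFKO-labelled library within the Neurog3-richest cluster, against 1.78 (1.33 to 2.37) and 1.90 (1.63 to 2.22) in the rest. Among Neurog3-high cells alone, Ghrl-high cells had 815 and 1158 CPM of Acsl1, beside the 24.8 and 26.8 CPM of Ghrl-low cells. In both libraries, of the groups compared, Acsl1 was thus highest in cells that had Ghrl at a high level and lay in the Neurog3-richest cluster. The clustering used neither gene, but it used many genes that differ with them, so cluster and Ghrl level are not independent descriptions of a cell.

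The difference between clusters was also seen in cells of similar Ghrl level. At 5000 to 10000 CPM of Ghrl, 16 WT and 24 NFKO-labelled cells of the Neurog3-richest cluster had 423 CPM (326 to 539) and 572 CPM (499 to 652) of Acsl1, while 19 and 39 cells of the remaining clusters had 68.7 CPM (37.5 to 115) and 52.9 CPM (37.0 to 73.2). Mboat4 in the same cells was 221 and 238 CPM against 73.6 and 60.2 CPM. Such cells thus differed in both enzymes by cluster, more so in Acsl1.

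Mboat4 was higher in Ghrl-high than in Ghrl-low cells in both compartments. It was 263 and 330.4 CPM in Ghrl-high cells of the Neurog3-richest cluster and 99.5 and 104 CPM in those of the remaining clusters, a ratio of 2.64 (2.13 to 3.29) and 3.18 (2.83 to 3.57). Ghrl-high over Ghrl-low cells gave 10.3 (6.79 to 16.2) and 6.77 (5.57 to 8.30) within that cluster, and 5.72 (4.37 to 7.49) and 7.85 (6.66 to 9.27) in the remaining clusters. The remaining clusters are pooled here and differ in Mboat4. The Tac1/Tph1 cluster, low in Ghrl, had 0.499 and 0.591 CPM of Mboat4, and the Cck cluster, high in Ghrl, had 10.0 and 8.56 CPM. The part of this mix of clusters in the pooled ratios was not tested. Where Ghrl was low, Mboat4 in the Neurog3-richest cluster was within counting error of the remaining clusters in WT, with a ratio of 1.47 (0.910 to 2.30), and above them in the NFKO-labelled library, with a ratio of 3.68 (2.91 to 4.63).

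**Figure D2:**
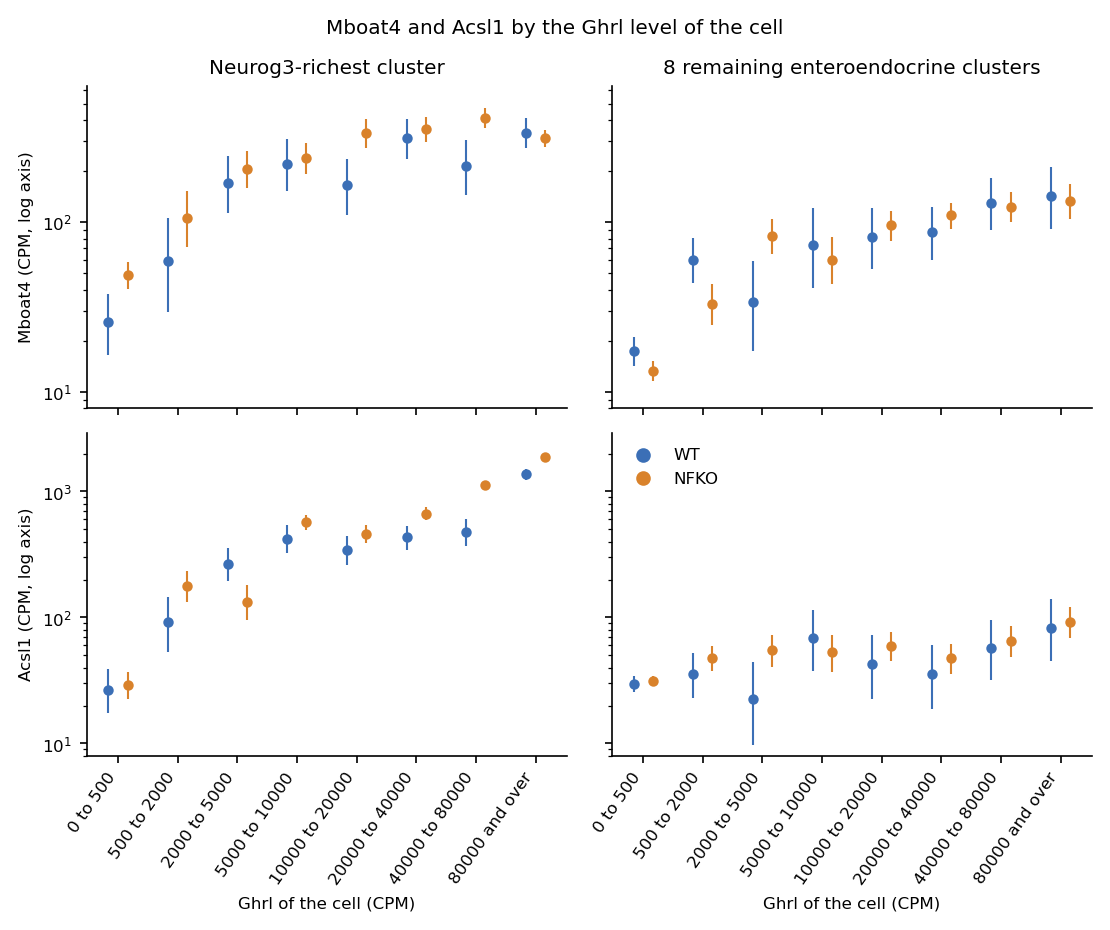
Mboat4 (top) and Acsl1 (bottom) in CPM on log axes, in EEC-like cells grouped by their own Ghrl level in CPM, for the Neurog3-richest cluster (left) and the 8 remaining EEC-like clusters (right), in WT (blue) and the NFKO-labelled library (orange), with 95% counting intervals. Mboat4 is higher at high Ghrl on both sides, whereas Acsl1 reaches 423 and 572 CPM at 5000 to 10000 CPM of Ghrl on the left and stays under 100 CPM on the right.

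Many Ghrl-high cells carried a second hormone, and the enzymes divided along that line. No other hormone of Gip, Gcg/Pyy, Cck, Nts and Sst reached 5000 CPM in 80 WT and 172 NFKO-labelled Ghrl-high cells, of which 79 and 170 lay in the Neurog3-richest cluster. These cells had 58967 and 95929 CPM of Ghrl, 263 and 329 CPM of Mboat4, and 715 and 1203 CPM of Acsl1. The 104 and 236 Ghrl-high cells with another hormone had 38311 and 38793 CPM of Ghrl, 101 and 107 CPM of Mboat4, and 52.4 and 61.1 CPM of Acsl1. Cells with ghrelin alone were therefore 2.60-fold (2.10 to 3.24) and 3.09-fold (2.75 to 3.46) higher in Mboat4 and 13.7-fold (10.6 to 17.8) and 19.7-fold (17.3 to 22.4) higher in Acsl1. The median depth was 12241 and 15343.5 UMIs in cells with ghrelin alone and 12657 and 17305.5 UMIs in the others. A fixed quota of cells with the highest doublet scores, 126 and 340, had been removed. Whether some of the kept droplets held more than 1 cell was not tested.

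Mboat4 also differed by the second hormone. With Sst as a second hormone (12 and 76 cells) Mboat4 was 104 and 120.5 CPM, with Gcg/Pyy (78 and 127 cells) 98.7 and 111 CPM, and with Cck (79 and 143 cells) 85.1 and 94.0 CPM. With Nts (11 and 42 cells) it rested on 3 and 17 UMIs, or 21.6 CPM in WT and a like level in the NFKO-labelled library, while Acsl1 was 40.8 to 93.3 CPM in WT and 53.0 to 74.2 CPM in the NFKO-labelled library across these 4 groups. A cell with several hormones counts in each group. In the Cck cluster 8 WT and 40 NFKO-labelled cells were Ghrl-high, with 46312 and 41542 CPM of Ghrl, and had 0 Mboat4 UMIs in WT, which allows up to 23.0 CPM, and 12.5 CPM (6.25 to 22.4) from 11 UMIs in the NFKO-labelled library. These cells carried the ghrelin transcript with little or no detected transcript of the acyltransferase.

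The overlap of Ghrl with Sst, the hormone of D cells, was counted in each library. Of the cells at 5000 CPM of Sst or over, 30.8% of 39 (17.0 to 47.6) in WT and 73.1% of 104 (63.5 to 81.3) in the NFKO-labelled library were Ghrl-high. These intervals are over the cells of 1 library a group, and the libraries differ in sex as well as label. The same share was 35.5% and 37.2% for Gcg/Pyy, 28.2% and 29.9% for Cck, 13.4% and 20.7% for Nts, and 1.15% and 7.36% for Gip. Mboat4 was also present in Sst cells with little Ghrl: in 9 WT and 11 NFKO-labelled Ghrl-low cells with Sst it was 112 and 127 CPM, from 8 and 19 UMIs.

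**Figure D3:**
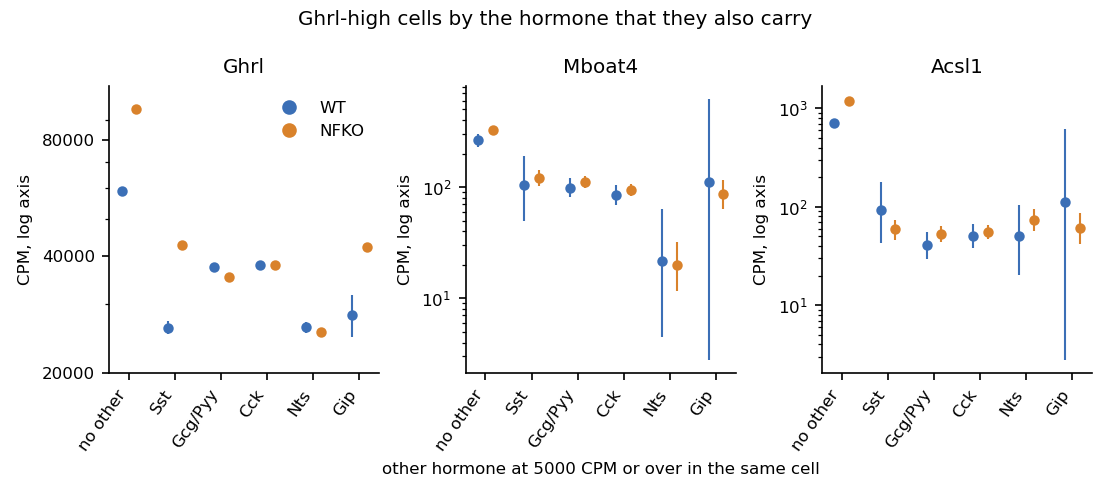
Ghrl (left), Mboat4 (middle) and Acsl1 (right) in CPM on log axes in Ghrl-high cells, by the other hormone at 5000 CPM or over in the same cell, for WT (blue) and the NFKO-labelled library (orange), with 95% counting intervals. The Gip group is 1 cell in WT and 31 cells in the NFKO-labelled library. Gip left aside, cells with no other hormone stand highest in the 3 genes, at 715 and 1203 CPM for Acsl1. Cells with Nts are lowest in Mboat4 among the groups other than Gip.

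Other genes of fatty acid and hormone handling were counted in the same comparison, with a limit of 2-fold and of 50 UMIs over the cells compared. Among the acyl-CoA synthetases Acsl1 was the member at least 2-fold higher in Ghrl-high cells, of 6 measured in WT and 7 in the NFKO-labelled library, and the median log2 ratios of the list were −0.21 and −0.32 beside −0.01 and −0.04 over all genes. Acsl5, an isoform of the intestine, had ratios of 0.759 and 0.801, and Acsl6 had 0.190 and 0.694. Among the MBOAT family Mboat4 was the member that was 2-fold higher, of 7 and 10 measured, while Lpcat3 had ratios of 1.32 and 1.37, Soat1 0.633 and 0.783 and Dgat1 0.732 and 0.836. Mboat1 was lower in the NFKO-labelled library, with a ratio of 0.308. Genes at least 2-fold lower made up 5.21% of the genes counted in WT and 6.37% in the NFKO-labelled library.

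Genes of fatty acid uptake and oxidation were counted too. None of 14 measured genes in WT and of 16 in the NFKO-labelled library was 2-fold higher in Ghrl-high cells, with median log2 ratios of −0.17 and −0.26. That share lies near the 2.5% and 3.32% of all genes given above, and nothing is read from it. Fabp5, a fatty acid binding protein, was lower at 129 against 2564 CPM in WT and 483 against 4738 CPM in the NFKO-labelled library, and Fabp1, the form of liver and enterocytes, had ratios of 0.132 and 0.178. Fabp5 was among the leading genes of the Gip cluster, in which 0 of 151 WT and 3 of 447 NFKO-labelled cells were Ghrl-high. The mitochondrial genes Cpt2, Hadha and Hadhb had ratios of 1.30, 1.07 and 1.08 in WT and 1.27, 0.973 and 0.980 in the NFKO-labelled library, and Hadh had 1.48 (1.31 to 1.67) and 1.31 (1.23 to 1.41). Ppara, a nuclear receptor of fatty acids, had 16 UMIs in Ghrl-high cells and 227 in Ghrl-low cells of the NFKO-labelled library, a ratio of 0.195.

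Among the prohormone processing genes Pcsk1, which cuts proghrelin, had ratios of 0.753 and 0.869. The granins differed: Scg2 was higher by 2.74-fold and 2.09-fold, whereas Chga had ratios of 0.282 and 0.374 and Chgb of 0.113 and 0.164. The 8 EEC markers, which include Chga and Chgb, summed to 8234 and 8453 CPM in Ghrl-high cells and 30779 and 24768 CPM in Ghrl-low cells, with none at 0. The lower sum lay in Chgb, at 2688 against 23816 CPM in WT and 2857 against 17439 CPM in the NFKO-labelled library, and in Chga. Of the other markers, Isl1 (2.36 and 2.06), Cpe (1.25 and 1.08) and Scg5 (1.24 and 1.09) had ratios above 1. Neurod1 (0.968 and 0.953) and Insm1 (0.729 and 0.681) were below 1, and Pcsk1n had 1.09 and 0.629. No receptor of the list of ghrelin-cell receptors was 2-fold higher in WT among 7 measured, and 2 of 10 were in the NFKO-labelled library: Mc4r, a melanocortin receptor, at 5.95 against 1.2 CPM, and Casr, the calcium-sensing receptor, at 5.37 against 1.83 CPM. Both were under the limit of 50 UMIs in WT, where Mc4r had 7 UMIs in Ghrl-high and 2 in Ghrl-low cells, a ratio of 10.5 (2.01 to 104), and Casr 12 and 16 UMIs, a ratio of 2.26 (0.975 to 5.09).

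Ghsr, the ghrelin receptor, had 0 UMIs in EEC-like cells of either library. This allows a level of up to 0.287 CPM in WT and 0.103 CPM in the NFKO-labelled library, the level of 3 UMIs. Leap2, an antagonist of that receptor, was at 0.445 against 0.590 CPM in WT and 1.31 against 1.88 CPM in the NFKO-labelled library and was not measured by the limit of 50 UMIs. Lypla1, an enzyme that can remove the acyl group, had ratios of 0.923 and 0.892, and Lypla2 1.18 and 0.939. Bche, another deacylase, had 1.47 (0.842 to 2.50) in WT. In the NFKO-labelled library it had 2.02 (1.27 to 3.19), from 35 UMIs in Ghrl-high and 48 in Ghrl-low cells, the 1 gene of 3 measured past the limit there.

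Transcription factors of the endocrine lineage went both ways in Ghrl-high cells. Of 19 measured, 3 were at least 2-fold higher and 5 lower in WT, and 4 and 4 in the NFKO-labelled library. Isl1, a LIM-homeodomain factor of endocrine cells, was higher by 2.36-fold and 2.06-fold, and Etv1 by 2.03-fold and 2.09-fold. Hhex, the factor of pancreatic delta cells, was 6.07-fold higher in the NFKO-labelled library and 1.38-fold (1.02 to 1.84) in WT, beside Sst ratios of 56.1 and 9.77. Lmx1a, of serotonergic cells, had 1 UMI in WT and 5 in the NFKO-labelled library in Ghrl-high cells, and 718 and 1975 in Ghrl-low cells. Pax4 (0.305 and 0.331), Rfx6 (0.361 and 0.415) and Foxa1 (0.381 and 0.245) were lower too, and Neurog3 had ratios of 0.745 and 0.693.

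The genes outside the lists that led in Ghrl-high over Ghrl-low cells were Irs4, Fxyd2, Plb1, Gper1 and Apln, ranked by the lower ratio of the 2 libraries among 6186 genes. Irs4, an adaptor of insulin signalling, was higher by 68.7-fold (28.6 to 216) and 123-fold (75.3 to 217), and Fxyd2, a regulator of the sodium pump, by 64.3-fold and 39.1-fold. Plb1, a phospholipase, Gper1, an estrogen receptor of the membrane, and Apln, the peptide apelin, had ratios of 29.4, 27.3 and 22.7 in WT and 34.2, 31.2 and 17.7 in the NFKO-labelled library. Irs4, Fxyd2 and Gper1 were also among the leading genes of the Neurog3-richest cluster, which held 82 of 184 and 174 of 408 Ghrl-high cells. These ratios are not split by compartment here.

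The summed level of the goblet cell markers was higher in Ghrl-high cells, through some of its members. The 7 goblet markers summed to 5742 and 8962 CPM in Ghrl-high cells and 2835 and 4259 CPM in Ghrl-low cells, with none at 0. Tff3, a trefoil peptide, made up most of this: it was 6648 and 9243 CPM in Ghrl-high cells of the Neurog3-richest cluster, 2252 and 3418 CPM in those of the remaining clusters, 1191 and 1656 CPM in Ghrl-low cells and 41545 and 55854 CPM in goblet-like cells. Muc2, the mucin that defines goblet cells, was 48.8 and 229 CPM, 62.0 and 329 CPM, and 105 and 297 CPM in the first 3 of these, and 7439 and 12946 CPM in goblet-like cells. Agr2, of protein folding in secretory cells, was 97.5 and 157 CPM, 1155 and 1908 CPM, and 494 and 505 CPM in the same 3 sets. Spink4 was 558 and 527 CPM, 561 and 456 CPM, and 664 and 549 CPM in them, so that it was lower in both sets of Ghrl-high cells. Fcgbp, Zg16 and Clca1 were not higher in both sets of Ghrl-high cells of both libraries. The part of goblet transcripts in the levels of Mboat4 and Acsl1 was not tested, and goblet-like cells had little Mboat4 and 47.3 and 52.6 CPM of Acsl1.

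Between the libraries the ratio differed by gene and by compartment. Over EEC-like cells the NFKO-labelled library over WT was 1.42 (1.41 to 1.43) for Ghrl, 1.13 (1.03 to 1.24) for Mboat4 and 1.5 (1.40 to 1.61) for Acsl1. In the Neurog3-richest cluster the ratios were 1.86 (1.85 to 1.88), 1.42 (1.25 to 1.61) and 1.80 (1.67 to 1.95). In the remaining 8 clusters, pooled, they were 1.12 (1.11 to 1.13), 0.955 (0.833 to 1.10) and 1.15 (1.01 to 1.32). Single clusters among the 8 went both ways. Ghrl was 8887 and 28979.6 CPM in the Sst cluster and 351 and 4788 CPM in the Nts cluster. It was 14638 and 12678 CPM in the Gcg cluster and 31029.9 and 24565 CPM in the Cck cluster. The higher Mboat4 of the NFKO-labelled library was thus seen in the Neurog3-richest cluster, and without that cluster its direction turned within counting error. Among the remaining 8, Mboat4 was 72.8 and 104 CPM in the Gcg cluster and 26.7 and 20.6 CPM in the Gip cluster.

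Ghrl-high cells divided in the same way. In Ghrl-high cells of the Neurog3-richest cluster Ghrl was 59257 CPM in WT and 96518 CPM in the NFKO-labelled library, with ratios of 1.63 (1.61 to 1.64) for Ghrl, 1.26 (1.09 to 1.45) for Mboat4 and 1.68 (1.55 to 1.83) for Acsl1. In Ghrl-high cells of the remaining clusters the levels of Ghrl were 37929.7 and 37995 CPM, and the ratios 1.00 (0.992 to 1.01), 1.05 (0.858 to 1.28) and 1.14 (0.869 to 1.51). The share of EEC-like cells that were Ghrl-high, with the unnamed cluster rich in Gip left out, was about the same, at 21.3% (18.6 to 24.2) and 21.6% (19.8 to 23.5).

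Among the hormone groups the Sst-dominant cells had the highest ratio for Ghrl after Tph1-positive cells, 3.96 (3.81 to 4.12). Mboat4 was 1.70-fold (1.40 to 2.07) higher in Neurog3-high cells of the NFKO-labelled library and 1.17-fold (1.00 to 1.38) higher in Ghrl-dominant cells. Acsl1 was 1.92-fold (1.72 to 2.17) and 1.87-fold (1.67 to 2.09) higher in the same groups and 2.39-fold (1.55 to 3.85) higher in Nts-dominant cells, at 45.4 and 109 CPM. In Gip-dominant cells it was lower, at 29.8 and 17.2 CPM. Goblet-like cells had an Acsl1 ratio of 1.11 (1.02 to 1.21). Over all kept cells the ratios were 2.76 for Ghrl, 2.19 for Mboat4 and 1.71 for Acsl1, beside a share of EEC-like cells that was larger in the NFKO-labelled library, 1888 of 5292 against 863 of 3003. The unnamed cluster rich in Gip, with 172 WT and 106 NFKO-labelled cells, is left out of these counts. At a clustering resolution of 0.4 the shares were closer, 1994 of 5292 against 1035 of 3003.

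Sex moved with the library label. In male-typed EEC-like cells, 721 in WT and 129 in the NFKO-labelled library, Ghrl was 10498 and 25485 CPM, a ratio of 2.43 (2.40 to 2.45), Mboat4 57.4 and 68.3 CPM, a ratio of 1.19 (0.977 to 1.44), and Acsl1 99.3 and 189 CPM, a ratio of 1.91 (1.68 to 2.15). The directions were thus the same in male-typed cells, with Mboat4 within counting error. Within the NFKO-labelled library, 1694 female-typed cells over the 129 male-typed cells had ratios of 0.541 (0.536 to 0.546), 0.958 (0.804 to 1.15) and 0.767 (0.689 to 0.855). The part of sex in the library ratios was not tested further, and WT held 2 female-typed EEC-like cells. The highest single cell had 426176 CPM of Ghrl in the NFKO-labelled library and 184658 CPM in WT.

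**Figure D4:**
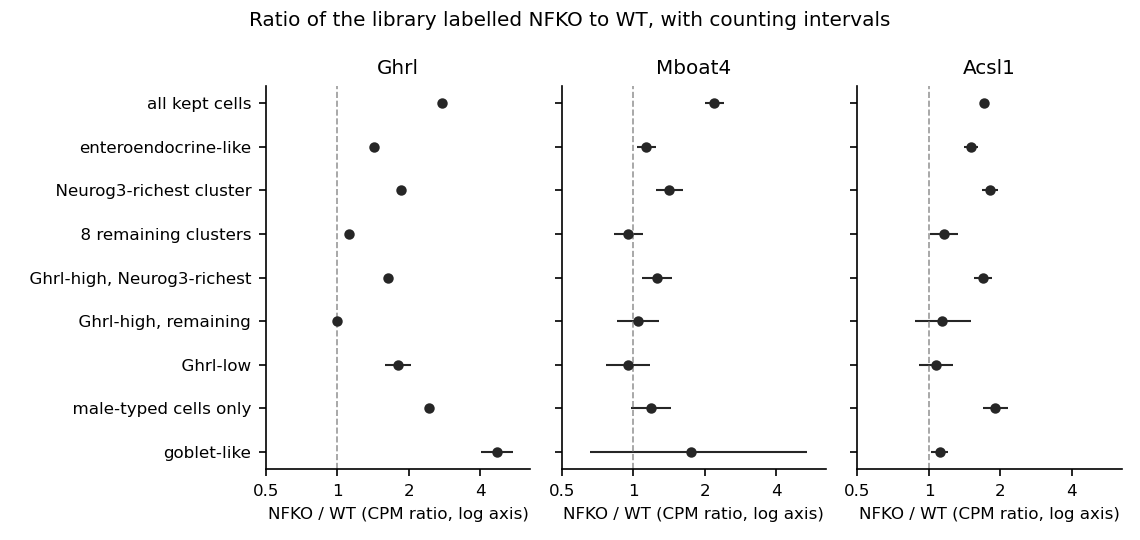
Ratio of the NFKO-labelled library to WT for Ghrl (left), Mboat4 (middle) and Acsl1 (right) on log axes, with 95% counting intervals, in all kept cells, EEC-like cells, compartments of them and goblet-like cells; the dashed line marks a ratio of 1. The ratios in the Neurog3-richest cluster, 1.86, 1.42 and 1.80, lie above those in the 8 remaining clusters, 1.12, 0.955 and 1.15. The 8 are pooled, and single clusters among them went both ways in Ghrl.

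Against the whole table, 6.77% of 12752 genes were at least 1.5-fold higher and 6.42% at least 1.5-fold lower in EEC-like cells of the NFKO-labelled library, with a median log2 ratio of −0.03. Acsl1, at 1.5, lay at that limit, and Ghrl and Mboat4 were under it. As a mean over cells Acsl1 was 1.43 and with a stricter filter on cells 1.48, both under the limit. With the main settings Acsl1 was the single acyl-CoA synthetase of 7 measured to reach the limit, beside Acsl5 at 1.35 and Acsl4 at 1.34. In the MBOAT family of 10 measured none was higher, and Mboat2 was lower at 19.3 against 29.3 CPM. Of 16 genes of fatty acid uptake and oxidation, Fabp1 (3.26), Fabp5 (1.83) and Ppara (2.39) were higher and Cpt1a (0.650), the entry enzyme of mitochondrial oxidation, and Acadl (0.610) lower.

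Hormones were the list with the most genes past the limit. Of 11 measured, Gip (4.29), Nts (2.81), Sst (2.29), Sct (2.20) and Iapp (5.45) were higher and Gcg (0.402) and Tac1 (0.530) lower, with a median log2 ratio of 0.36. Among 11 receptors of ghrelin cells 4 were higher, the somatostatin receptors Sstr1 (1.85), Sstr2 (1.69) and Sstr3 (1.63) and Mc4r (2.08). Prohormone processing had 3 of 9, Pcsk2 (3.63), Pcsk1n (1.72) and Scg5 (1.97). Of the 19 transcription factors Hhex (1.83) and Pdx1 (3.32) were higher and Etv1 (0.628) lower. Among the 4 measured genes of the receptor, antagonist and deacylase list, Leap2 was higher (2.88, from 6 and 48 UMIs) and Bche, a deacylase of plasma, lower (0.438).

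Likeness of pattern was described by Pearson's r of log2(CPM + 1) over the 23 clusters, with the libraries summed and 13484 genes compared. Clusters share libraries and differ in depth and size, so r is a description. For Mboat4 the closest genes were Avpr1b (0.962), a vasopressin receptor of endocrine cells, Trp53cor1 (0.952), Syne1 (0.932), Gm26691 (0.908) and Fbxo17 (0.903). For Ghrl they were Ina (0.933), Tmem108 (0.896), Nudt11 (0.893), Gria2 (0.890) and Kcnk16 (0.885). For Acsl1 they were less close: Olfml3 (0.785), Arhgap22 (0.738), Ppm1n (0.722), Amotl1 (0.720) and Npc2 (0.711).

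Ghrl and Mboat4 had an r of 0.860 over the 23 clusters and 0.787 over the 9 EEC-like clusters, and Mboat4 ranked 13 among the genes closest to Ghrl. Ghrl and Acsl1 had 0.435 and 0.499, and Mboat4 and Acsl1 0.431 and 0.431. Neurog3 had an r of 0.444 with Acsl1 and 0.203 with Ghrl over the 23 clusters, and −0.285 with Ghrl over the 9.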

How the data were processed

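Tomato+ small intestinal cells of 1 WT and 1 NFKO-labelled library were analysed, grouped by the genotype labels. The authors made the libraries with the 10x Genomics 3′ kit, and deposited raw UMI counts per gene and barcode, made with Cell Ranger 5.0.1 on mm10 according to the submitters' processing notes. The matrices held 5051 and 7540 barcodes with 90002878 and 124300388 UMIs. Barcodes under 500 genes, under 1000 UMIs or above 25% mitochondrial UMIs were removed (38.1% and 25.3%). Scrublet in scanpy 1.11.5 scored doublets, and the highest scores, 0.8% per 1000 barcodes, were removed (126 and 340 cells). The kept cells had a median of 16883 and 17039 UMIs.

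Cells of both libraries were clustered in Seurat 5.3.0 under R 4.3.3 (2000 variable genes, 30 principal components, 20 neighbours, resolution 0.8, no integration). The 3 genes and 10 others (sex-linked genes, Foxo1, Iapp and both insulin genes) were left out. A cluster was named for a class from 3 or more markers that were 2-fold or more above the other cells and detected in 10% or more of the cluster, and 20 of 23 clusters were named. The members, gene lists and rules were chosen with earlier results of these data known. Genes named in the text were the members, the list genes, the 5 genes closest to each member in pattern, and the 5 other genes highest in Ghrl-high over Ghrl-low cells; Foxo1, Xist and goblet markers were named as checks.

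CPM were computed from summed UMIs, with exact Poisson, Clopper-Pearson and conditional binomial intervals at 95% in scipy 1.17.1. PCR copies are removed by the UMIs. The limit for a count of 0 was 3 UMIs. For shares of cells, cells were thinned to 2000 UMIs, without the 32 and 337 shallower cells. A gene was counted past a limit by its ratio alone. The values of 1 listed gene are not reported here. The intervals of ratios were tested on simulated counts, and the rankings were not. The simulated counts held counting error alone, so that test does not cover the spread between cells. Gene positions came from the annotation of GRCm38, and upstream sequence from RefSeq for GRCm38.p6. Alternatives covered scaling, filters, clustering, doublets, sex, cut-offs, thinning and single cells.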

Additional observations from a re-analysis of the deposited data

How the results depend on the processing

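No paired analysis was possible because each group had 1 library, and for the same reason no replicate could be left out. Counting error is the precision given; Mboat4, at 599 and 1883 UMIs in EEC-like cells, is limited by depth most. The direction of each library ratio of the 3 genes in EEC-like cells was kept in the alternatives run, except that Mboat4 turned from 1.13 to 0.955 without the Neurog3-richest cluster. The Ghrl ratio of 1.42 was 1.45 with median-of-ratios scaling, 1.30 as a mean over cells, 1.39 with a stricter filter, 1.54 and 1.40 at clustering resolutions 0.4 and 1.2, 1.48 with the members kept in the clustering, 1.53 with doublets kept, 2.43 in male-typed cells and 1.38 without the 3 highest cells of each library. Counting in the shallow unnamed cluster rich in Gip gave 1.54, and leaving out the Neurog3-richest cluster 1.12. The Acsl1 ratio of 1.5 was 1.91 in male-typed cells, 1.71 without the 3 highest cells and 1.15 without that cluster. Foxo1 over all cells was 0.931 with median-of-ratios scaling, which shifts all genes by 0.21 on the log2 scale there.

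Over both libraries the EEC-like levels were 13576 CPM of Ghrl, against 13179 and 14484 at resolutions 0.4 and 1.2 and 13440.0 with members kept, 62.8 CPM of Mboat4, against 65.9 at resolution 1.2, and 135 CPM of Acsl1, against 141. Ghrl in Sst-dominant cells was 29641 CPM, and 30037 with a hormone limit of 10000 CPM, and Acsl1 in Ghrl-dominant cells 722 CPM, and 665 with a limit of 2000 CPM. Shares of cells with a UMI moved with depth: thinned to 5000 UMIs they were 45.6% and 52.5% for Ghrl, 18% and 18% for Mboat4 and 20.6% and 23.7% for Acsl1 in WT and the NFKO-labelled library, and unthinned 51.9% and 71.1%, 27.7% and 28.7%, and 35.0% and 42.2%. Ghrl-high over Ghrl-low cells in the NFKO-labelled library gave 12.5 for Mboat4 as a mean over cells, 46.4 in male-typed cells, and 14.1 and 17.7 for Acsl1 with the upper limit at 2000 and 10000 CPM. Without the Neurog3-richest cluster Mboat4 was 5.72 and 7.85 and Acsl1 1.78 and 1.90. The alternatives that counted in the shallow cluster, left out the Neurog3-richest cluster, or left Ghrl UMIs out of the totals were chosen after seeing the data. The causes of these differences were not tested.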
